A study of Mus musculus with 4 samples.

Results

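The barcodes described here carried RNA of endothelial cells, which line the vessels, together with RNA of Müller glia, in single-cell libraries from mouse retina. A barcode was a member when it held at least 4 UMIs (unique molecular identifiers, a tag for each captured RNA molecule) of Cldn5, Cdh5, Pecam1 and Flt1 over at least 2 of these endothelial genes, at least 3 UMIs each of the glial genes Rlbp1 and Glul, and at most 1 UMI of the pericyte genes Pdgfrb, Kcnj8 and Abcc9. Barcodes called doublets were kept. The rule found 1268 members among the 19716 barcodes that passed quality filters, of 21410 deposited. Diabetic 1 held 472 of them, Diabetic 2 307, Control 1 357 and Control 2 132.

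The study compared retinal cells of 2 libraries labelled Diabetic with those of 2 libraries labelled Ctrl, called Control here. All 4 libraries were labelled as CD31+ cells, enriched with beads for CD31, the protein of Pecam1. The labels gave no strain, age, diabetes model, duration or number of animals. Whether the 2 libraries of a group had different donor animals was not stated, and p-values measure only the spread between these 4 libraries, which may be technical. The deposited totals lay between 29792902 and 58792636 UMIs, and pairs of libraries shared 5 to 9 barcode sequences.

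Müller glia are the radial glia of the retina. They span its whole thickness, supply neurons with metabolites, and take up glutamate and potassium. Their processes end as endfeet on the vessels, where the water channel of Aqp4 and the potassium channel of Kcnj10 are held by the dystrophin complex. In astrocytes of the mouse brain some mRNAs are carried to such endfeet and translated there. Rlbp1 encodes a retinoid-binding protein and Glul glutamine synthetase, and both are classical markers of Müller glia. Cldn5 encodes the main claudin of the blood-retina barrier, and Flt1 a receptor of vascular endothelial growth factor.

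The members were not a single kind of barcode. They were divided into 3 groups by endothelial UMIs (Cldn5, Cdh5, Pecam1 and Flt1) as a share of all UMIs of the barcode. In 660 members the share was below 10 per 10,000 UMIs. These low-share members were very deep, with median totals of 36110 to 74686 UMIs, a median endothelial share of 0.857 to 1.66 per 10,000 and a median rod share of 370 to 477 per 10,000. They made up 43.9% to 61.9% of the members of a library and 83.3% to 90.9% of the members' UMIs. Rod RNA thus outweighed both endothelial and glial RNA in them, against the name of the group, and they are called low-share members here.

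In 470 members, called vessel-rich, the endothelial share was at least 40 per 10,000 UMIs. They numbered 195 in Diabetic 1, 120 in Diabetic 2, 95 in Control 1 and 60 in Control 2. Their median depth was 4817 to 6979 UMIs and their median endothelial share 77.8 to 91.6 per 10,000, against 89.0 to 96.4 in 1024 barcodes called endothelial without glia (no Rlbp1 and at most 1 Glul UMI). Their median share of Rlbp1 and Glul was 44.6 to 50.6 per 10,000, against 116 to 139 in 337 deep glia-rich barcodes called whole glia (at least 2000 UMIs, under 20 endothelial and at least 40 glial UMIs per 10,000). The 14 Müller glia markers summed to 9042, 8642, 9113 and 8509 CPM (counts per 1000000 UMIs) in vessel-rich members of Diabetic 1, Diabetic 2, Control 1 and Control 2, against 1322, 1534, 1091 and 882 CPM in endothelial barcodes without glia and 34302 to 43054 CPM in whole glia. The 10 endothelial markers summed to 14983, 15621, 12755 and 13281 CPM in vessel-rich members, against 1747, 1820, 1702 and 1657 CPM in whole glia. Both lists hold genes that the rule used, so these levels are a description. The remaining 138 members, with shares between 10 and 40, are called middle members.

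**Figure D1:**
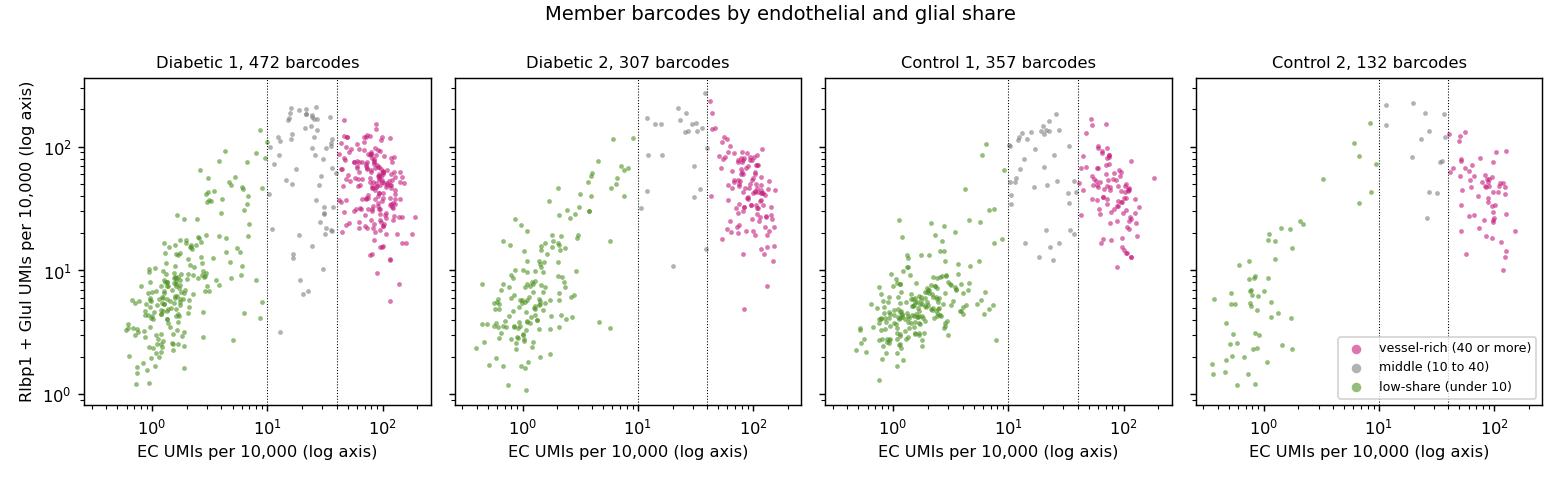
Each point is a member, placed by its endothelial UMIs (Cldn5, Cdh5, Pecam1 and Flt1) and its glial UMIs (Rlbp1 and Glul) per 10,000 UMIs, both on log axes, in 1 panel per library. Dotted lines at endothelial shares of 10 and 40 divide the 660 low-share, 138 middle and 470 vessel-rich members by definition.

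Many members lay at the edge of the rule. Of the 1268 members, 178 held exactly 4 endothelial UMIs, 216 held exactly 3 of Rlbp1, 24 exactly 3 of Glul and 404 held 1 pericyte UMI. Around the shares that divide the groups, 34 members had 8 to 12.5 and 62 had 32 to 50 endothelial UMIs per 10,000. A further 189 endothelial barcodes lay just outside the rule, with 1 or 2 UMIs of each glial gene. Among the vessel-rich members the glial share varied widely, from 16.3 at the 5th percentile to 119 at the 95th in Diabetic 1 and from 14.4 to 99.2 in Control 1. Within each library the glial share fell with the endothelial share (Spearman's rho -0.31, -0.43, -0.49 and -0.44 in Diabetic 1, Diabetic 2, Control 1 and Control 2, over 195, 120, 95 and 60 barcodes). Both shares have the same total as denominator, so this is a description. Doublets were called in 46 of 470 vessel-rich members (9.79%), 40 of 138 middle members (29.0%) and 21 of 660 low-share members (3.18%), against 4.67% of all barcodes that passed.

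All members, low-share ones included, made up 21.5% of the endothelial barcodes in Diabetic 1 (95% exact interval 19.8% to 23.3%) and 31.0% in Diabetic 2 (28.2% to 34.0%), against 32.2% in Control 1 (29.5% to 35.1%) and 33.0% in Control 2 (28.4% to 37.8%). These intervals cover counting error only. Diabetic 1 lay below the other 3 libraries, but 2 libraries against 2 give no exact permutation p below 1 in 3, so no call is made. Vessel-rich members alone were 8.90% of the endothelial barcodes in Diabetic 1 (7.74% to 10.2%) and 12.1% in Diabetic 2 (10.2% to 14.3%), against 8.57% in Control 1 (6.99% to 10.4%) and 15.0% in Control 2 (11.6% to 18.9%), so that Diabetic 1 did not lie below Control 1 there. Rod barcodes without endothelial UMIs, which should hold neither glial RNA, met the same glial thresholds in 5.89% and 9.51% of barcodes in Diabetic 1 and 2 and in 7.34% and 11% in Control 1 and 2. Endothelial barcodes were deeper (medians 3507 to 5271 UMIs) than rods (2338 to 3780). After each barcode was thinned to 1000 UMIs, the shares were 2.29% and 2.8% of endothelial barcodes in Diabetic 1 and 2 and 2.83% and 4.03% in Control 1 and 2, against 0.414% and 0.671% of Diabetic and 0.342% and 1.23% of Control rods. Thinning left out shallower barcodes, 182 and 60 endothelial ones in Diabetic 1 and 2 and 83 and 28 in Control 1 and 2, and 149 and 23 Diabetic and 169 and 43 Control rods.

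The RNA of glial genes in vessel-rich members was not a scaled copy of that in whole glia. For this comparison a panel of 167 glial genes was chosen by its level in whole glia against endothelial barcodes without glia, neurons and microglia, leaving out Rlbp1 and Glul. Whole glia thus chose the panel and are also its comparison, while the members did not enter the choice. Each gene was read relative to the panel, so the smaller amount of glial RNA in vessel-rich members does not by itself count as a difference. Panel genes could still reach 5% of their whole-glia level in endothelial barcodes without glia and 20% in neurons and microglia. Such RNA weighs more where glial RNA is scarce, and the scaling does not remove it. Its part in the calls was not tested. In edgeR's quasi-likelihood test with the library as block, 43 panel genes were higher in vessel-rich members (25.7% of the panel) and 64 lower (38.3%), at a Benjamini-Hochberg adjusted p under 0.05. Of these, 40 and 59 went the same way in 4 of 4 libraries. Over all genes 95.5% of 11538 were called, and only panel genes are read here. Another scaling (TMM over the panel) moved the panel by 0.21 on the log2 scale and gave 52 higher and 46 lower. All 43 and 46 of the 64 kept their call, and 13 genes changed sign, of which 0 had been called.

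Of the genes that were lower, Aqp4, the water channel of endfeet, had 149 and 167 per 10,000 panel UMIs in vessel-rich members of Diabetic 1 and 2 and 181 and 166 in those of Control 1 and 2. In whole glia it had 310, 352, 327 and 350 in the same order. The groups did not overlap, and the fold change was -1.02 ± 0.15 (log2, SE, edgeR adjusted p = 3.02e-08). Col9a1, a chain of collagen IX, had 25.8, 53.9, 31.0 and 19.5 in vessel-rich members and 116, 102, 79.6 and 69.8 in whole glia, in the same library order (-1.53 ± 0.22, edgeR adjusted p = 9.03e-09). Gpr37, a receptor related to the endothelin receptors, had 76.0, 86.6, 67.7 and 78.0 against 203, 221, 199 and 246 in whole glia (-1.48 ± 0.17, edgeR adjusted p = 1.95e-11). Both lay lower in every library. Efemp1, a matrix glycoprotein (-1.19), Epha5, an ephrin receptor (-1.11), Col23a1, a transmembrane collagen (-0.78), and Spon1, a secreted matrix protein (-0.72), were also lower. So were the glutamate transporter Slc1a3 (-0.69) and the potassium channel Kcnk1 (-0.65), which was not called with TMM (-0.44), in DESeq2 or with the endothelial share from 20.

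Of the genes that were higher, Efhd1, a calcium-binding protein of mitochondria, had 50.2 and 57.7 per 10,000 panel UMIs in vessel-rich members of Diabetic 1 and 2 and 56.4 and 58.5 in those of Control 1 and 2, against 19.3, 22.2, 17.7 and 20.6 in whole glia (1.47 ± 0.21, edgeR adjusted p = 1.73e-08). Abat, which breaks down GABA in mitochondria, had 86.9, 106, 70.6 and 61.7 against 36, 26.0, 25.8 and 31.8 (1.44 ± 0.19). Fbxo2, a subunit of a ubiquitin ligase, had 166, 160, 135 and 136 against 70.4, 64.1, 50.3 and 46.1 (1.37 ± 0.16). None of the 3 overlapped between the groups. Gap43, a growth-cone protein attached to the inner side of the membrane (1.29), Psat1 of serine synthesis (1.28), Dapl1 (1.25) and the retinal-oxidizing enzyme Aldh1a1 (1.18) were higher as well, as were the transcripts D630033O11Rik (1.35), 2900052N01Rik (1.23) and E130114P18Rik (1.15). The most abundant of the higher genes, Spc25, a kinetochore gene that is strongly expressed in Müller glia of these libraries, had 973, 1020, 1020 and 1110 in vessel-rich members against 525, 464, 577 and 553 in whole glia (0.96 ± 0.14, named after its values were seen).

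Read by function, the glial lists had few panel genes each. Of 21 endfoot anchor and channel genes 5 were in the panel, with a median of 0.13 against -0.23 for the whole panel. Aqp4 was the only one of them lower. Sntb1, a syntrophin of the dystrophin complex, was higher (0.75 ± 0.23, edgeR adjusted p = 0.00212). Kcnj10 stood at 0.24 (adjusted p = 0.204), Dtna, a dystrobrevin, at 0.13 (0.575) and Mlc1, a membrane protein of endfeet, at -0.06 (0.768), and none of these 3 was called. Kcnj10 was called higher against rod-rich glia (0.43) and with TMM (0.46). The endfoot genes thus did not move together.

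Of 8 glial transport and metabolism genes in the panel 7 were lower and 0 higher, with a median of -0.48, where 38.3% of the whole panel were lower and 25.7% higher, with a median of -0.23. Besides Slc1a3 they were Abca8b (-1.14) and Abca8a (-0.32), which encode lipid-transporting ATPases, Acsl3 of fatty acid activation (-0.55, overlapped by Utp14b, so its UMIs are uncertain), Clu, a secreted chaperone (-0.41), Slc6a11, a GABA transporter (-0.39), and Ptgds, a prostaglandin synthase (-2.48). With TMM the 4 genes Clu (-0.18), Acsl3 (-0.33), Abca8a (-0.10) and Slc6a11 (-0.18) were not called. Of 7 surface and matrix genes 4 were lower, Col9a1, Gpr37, Spon1 and Gpm6a (-0.41, not called with TMM), and 2 higher, the myelin-type proteolipid Gpm6b (0.53) and the growth factor Mdk (0.63), read against the same shares of the panel. Of 6 transcription factors only Lhx2, which maintains Müller glia identity, was called (0.84 ± 0.16, higher), while Sox9 stood at 0.30 (adjusted p = 0.0734, called higher with TMM at 0.52), Sox2 at 0.16 and Pax6 at -0.26. Il33, an alarmin cytokine kept in the nucleus of Müller glia, was higher (0.89 ± 0.16).

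**Figure D2:**
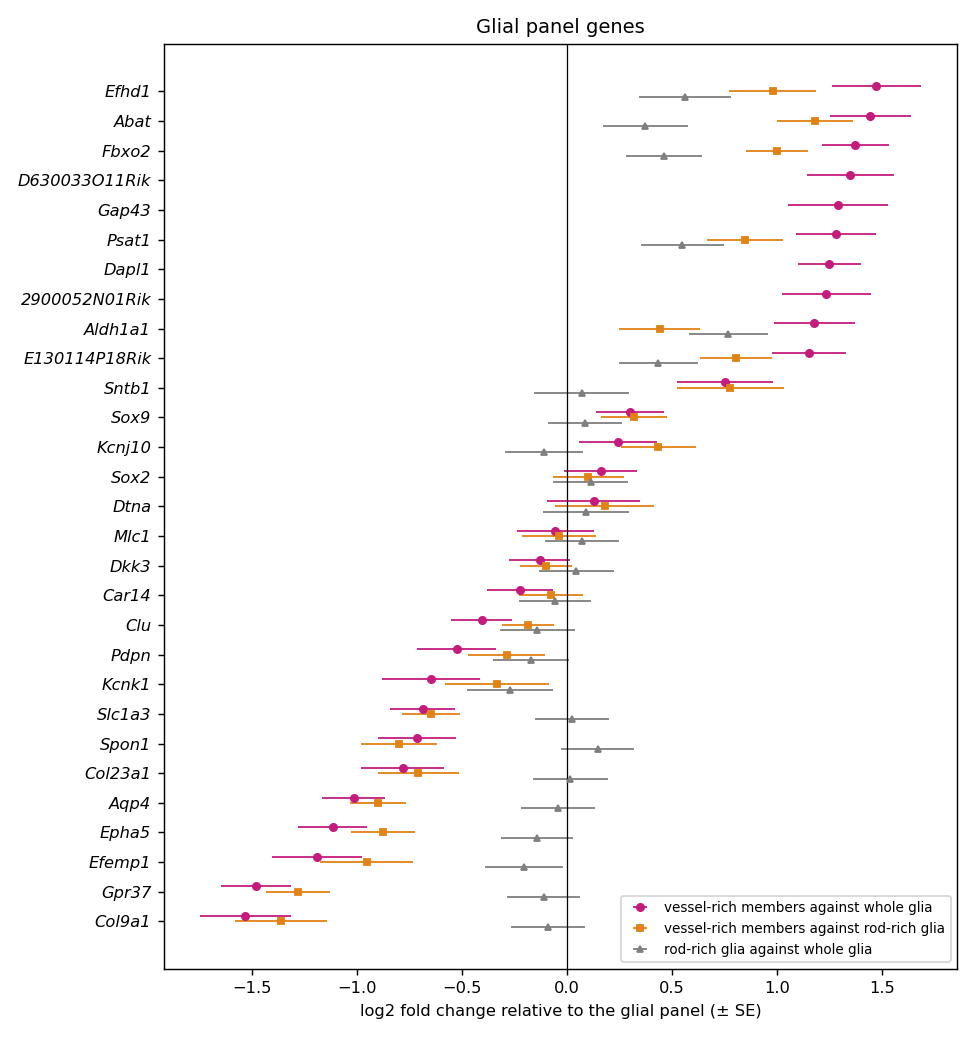
Points give the log2 fold change relative to the glial panel with its SE (horizontal bars) for genes chosen by size of change and 10 further glial genes, in vessel-rich members against whole glia (circles), vessel-rich members against rod-rich glia (squares) and rod-rich glia against whole glia (triangles). Circles and squares share the vessel-rich sums, and Aqp4 lies at -1.02 and -0.90 in them, while the triangle of Aqp4 lies at -0.04.

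The products of the lower and higher genes differed in a feature that the choice of members did not use. A protein was counted as having a hydrophobic stretch, as membrane-spanning segments and many signal peptides have, when a window of 19 residues reached a mean Kyte-Doolittle hydropathy of 1.6. Proteins were translated from the longest coding transcript in the GENCODE M21 annotation, and 161 of the 167 panel genes had one. A stretch was present in 52 of 62 lower genes (83.9%), in 16 of 39 higher genes (41.0%) and in 37 of 60 genes that were not called (61.7%). Over all genes tested it was present in 32.9% of 10760.

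Panel genes with a stretch had a median log2 fold change of -0.43 (105 genes) and those without a median of 0.19 (56 genes) in vessel-rich members against whole glia. Against rod-rich glia the medians were -0.42 and 0.26. Aqp4, Gpr37, Epha5, Slc1a3 and Kcnk1 encode membrane proteins and passed the threshold. The secreted proteins of Efemp1 (1.15) and Spon1 (1.59) did not reach it. Among higher genes that passed were Sfxn5, a mitochondrial carrier, and Gpm6b. This feature was examined after the calls were known, genes are not replicates, and the counts are given with no test. The lower genes also encoded longer proteins (median 538 residues, against 313 for the higher genes), while the fold change had almost no relation to the length of the gene (Spearman's rho -0.10 across 167 genes).

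**Figure D3:**
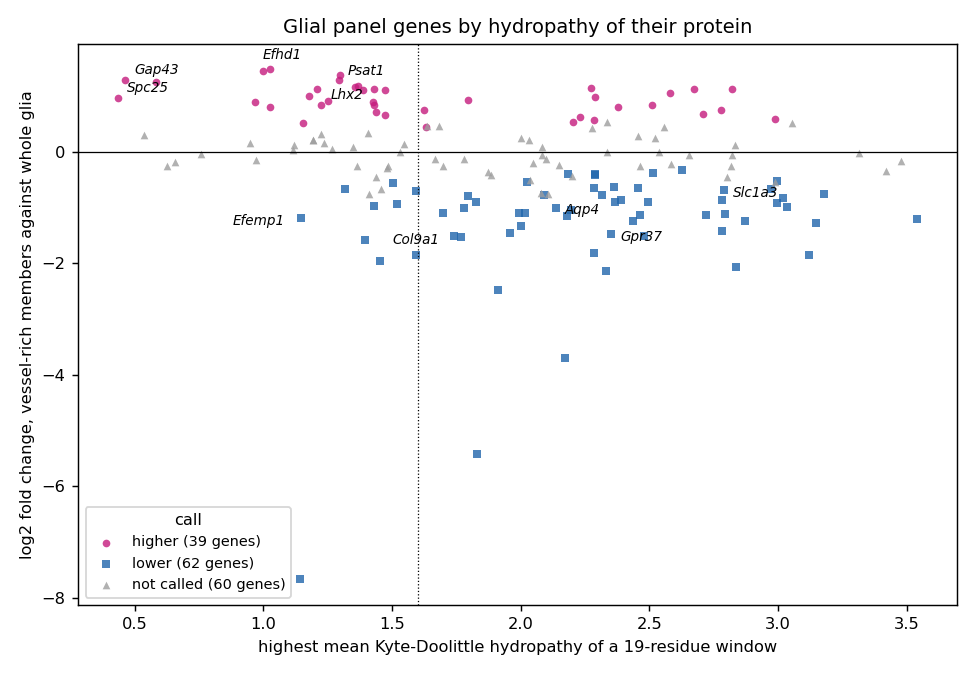
Each point is a panel gene with a translated protein, placed by the highest mean Kyte-Doolittle hydropathy of a 19-residue window (x axis) and by its log2 fold change in vessel-rich members against whole glia (y axis), with the dotted line at a hydropathy of 1.6. Of the genes called lower 52 of 62 lie right of the line, of those called higher 16 of 39.

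Vessel-rich members were also compared with rod-rich glia, a comparison that shares their sums with the one above. Rod-rich glia were 470 barcodes with glial and rod RNA and hardly any endothelial RNA (median endothelial share 0 to 1.32 per 10,000). Against them 28 panel genes were higher (21.1% of the 133 tested that are low in rods) and 39 lower (29.3%) in vessel-rich members. Aqp4 stood at -0.90 and Gpr37 at -1.28, while Ptgds, lower against whole glia, was higher against rod-rich glia (1.02). The middle members, by contrast, had 1 panel gene higher (0.599%) and 5 lower (2.99%) than whole glia, and 4 of these 5, Rpe65, Ttr, Rgr and Ptgds, are known from the pigment epithelium. Aqp4 was at -0.08 and Efhd1 at -0.02 in them. Between the 2 glial groups, rod-rich glia had 15 panel genes higher (10.3% of 146) and 5 lower (3.42%) than whole glia, with Efhd1 higher (0.56) and Aqp4 at -0.04.

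Rpe65, Ttr, Rgr and Ptgds were also lower in vessel-rich members, and pigment epithelium RNA was high in whole glia. The 5 pigment epithelium markers summed to 9.37 and 5.95 CPM in vessel-rich members of Diabetic 1 and 2 and to 3.74 and 0 in those of Control 1 and 2. In whole glia they summed to 1541 and 1840 CPM in Diabetic 1 and 2 and to 684 and 29.1 in Control 1 and 2. A panel of 163 genes without those 4 gave 43 higher and 64 lower. The first panel had 60 lower genes besides those 4, so the smaller panel added genes to the lower ones. Bipolar RNA was high in whole glia too. The 8 bipolar markers summed there to 2252 and 1422 CPM in Diabetic 1 and 2 and 2308 and 1962 in Control 1 and 2. In vessel-rich members they summed to 158, 106, 152 and 314 CPM in the same order. The part of bipolar RNA in the calls was not tested.

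Of the called genes other than pigment epithelium genes, 31 of 43 higher and 58 of 60 lower ones were low in rods. Their ratio, the UMIs of the 31 higher over those of the 58 lower genes, reads the make-up of glial RNA in other barcodes. In vessel-rich members it was 1.52 and 1.6 in Diabetic 1 and 2 and 1.43 and 1.57 in Control 1 and 2, and in whole glia 0.477, 0.434, 0.461 and 0.468; these 2 groups chose the genes, so their values are a description. The middle members lay with whole glia, at 0.485 and 0.443 in Diabetic 1 and 2 and 0.471 and 0.600 in Control 1 and 2. Low-share members had 0.575 and 0.597 in Diabetic and 0.802 and 0.659 in Control, near rod-rich glia at 0.553, 0.532, 0.574 and 0.709.

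Barcodes with little glial RNA had ratios nearer to those of vessel-rich members. Endothelial barcodes without glia had 1.30 and 1.18 in Diabetic 1 and 2 and 1.51 and 1.15 in Control 1 and 2. Rods without Rlbp1 had 1.07 and 1.12 in Diabetic and 1.04 and 1.22 in Control. The barcodes just outside the rule ranged widely, from 0.958 to 2.23, on as few as 13 UMIs. The amounts differed. The lower genes summed to 1574, 1380, 1594 and 1516 CPM in vessel-rich members of Diabetic 1, Diabetic 2, Control 1 and Control 2, against 210, 134, 207 and 174 CPM in endothelial barcodes without glia and 304, 222, 228 and 182 CPM in rods. With the level of endothelial barcodes without glia subtracted from both sums, the ratio of vessel-rich members was 1.55 and 1.64 in Diabetic 1 and 2 and 1.42 and 1.62 in Control 1 and 2, close to the ratio before subtraction. This subtraction was chosen after the data were seen. It could move the ratio little, since the subtracted sums were small and had ratios of 1.15 to 1.51 themselves. The part of background RNA in the ratio was not tested.

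**Figure D4:**
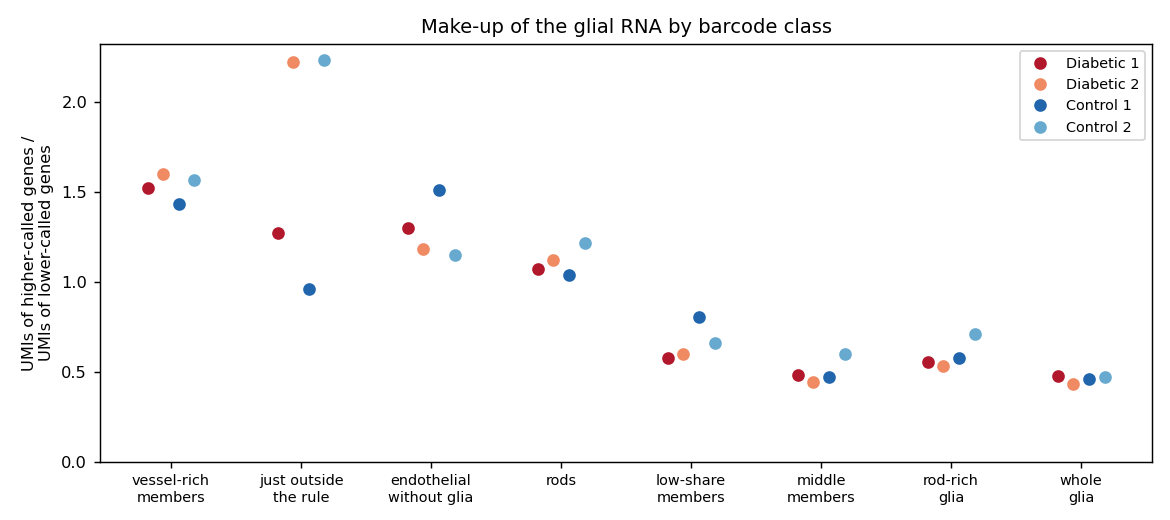
Each point is a library and gives the UMIs of 31 genes called higher over those of 58 genes called lower in vessel-rich members against whole glia, by group of barcodes. Vessel-rich members lie at 1.43 to 1.6, rods and endothelial barcodes without glia between 1.04 and 1.51, and middle members, rod-rich glia, low-share members and whole glia at 0.802 or below; barcodes just outside the rule range from 0.958 to 2.23.

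On the vessel side few genes differed between vessel-rich members and endothelial barcodes without glia. Of 400 endothelial panel genes 4 were higher (1.0%) and 22 lower (5.5%) in vessel-rich members, relative to that panel. Over all genes 10.3% of 8490 were called. Id1, a target of bone morphogenetic protein signalling, had 1415 and 1339 CPM in vessel-rich members of Diabetic 1 and 2 and 1341 and 1246 in those of Control 1 and 2. Without glia it had 1021, 779, 854 and 661 CPM in the same order, with no overlap (0.67, edgeR adjusted p = 0.00233). Smco4 (0.69), Car5a, a mitochondrial carbonic anhydrase (0.62), and Cmtm8 (0.56) were also higher, but of the 4 DESeq2 called only Id1. Car5a and Cmtm8 also lost the call in 3 of the 4 fits without 1 library, Car5a without Diabetic 1, Control 1 or Control 2 and Cmtm8 without Diabetic 1, Diabetic 2 or Control 1, and Smco4 lost it without Diabetic 1.

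Vwf, the platelet-binding protein of larger and venous vessels, had 171 and 231 CPM in vessel-rich members of Diabetic 1 and 2 and 80.4 and 89.3 in those of Control 1 and 2, against 283, 331, 155 and 390 without glia (-1.04, edgeR adjusted p = 0.00176). Neat1, a nuclear RNA (-1.05), Lrg1 (-0.93) and the transporter Slco1a4 (-0.38) were lower. Of 7 capillary markers edgeR and DESeq2 called 0 (2 had an unadjusted p under 0.05, both higher), with a median of -0.01 against -0.05 for the panel. Of 4 venous markers 2 were lower (Vwf and Lrg1), of 4 arterial markers 1 (Gkn3), and of 12 junction and barrier genes 1 (Slco1a4). DESeq2 called 5 genes in place of 26, and a fit on the panel alone 15. Depth differed too, at medians of 4817 to 6979 UMIs in vessel-rich members and 1636 to 1979 without glia.

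Leukocyte genes were also among the lower ones. Fcgr4, Plac8, Ptprc and Lst1 of leukocytes had at most 13.1 CPM in vessel-rich members of any library and up to 268 CPM (Plac8, Diabetic 2) without glia. The 8 microglia markers summed to 56.2 and 35.7 CPM in vessel-rich members of Diabetic 1 and 2 and 24.3 and 60.2 CPM in those of Control 1 and 2, against 194, 482, 34.4 and 41.0 CPM without glia. The part of these cells in the result was not tested. The design's comparison over all members, most of whose UMIs came from low-share members, gave 5 higher (1.3%) and 26 lower (6.75%) of 385 endothelial panel genes.

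In Diabetic against Control vessel-rich members, several genes of leukocyte adhesion and the acute phase were higher, while no glial panel gene was called. The edgeR test called 23 of 8425 genes higher (0.273%) and 8 lower (0.095%). Mgp, a matrix protein that binds bone morphogenetic proteins, had 1356 and 1103 CPM in Diabetic 1 and 2 and 325 and 285 CPM in Control 1 and 2, without overlap (log2 fold change 1.98 ± 0.15, SE, edgeR adjusted p = 0.000311). Lrg1, which encodes a leucine-rich glycoprotein of inflamed vessels, had 101 and 97.5 CPM in Diabetic and no UMI in Control, at least 33.7-fold higher against a floor of 3 UMIs over the Control group. Lcn2, an acute-phase protein, had 111 and 54.7 CPM in Diabetic and 3.74 and 4.15 CPM in Control (4.33 ± 0.58, edgeR adjusted p = 0.0106).

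Vcam1, which binds leukocytes, had 74.9 and 191 CPM in Diabetic and 13.1 and 10.4 CPM in Control (3.41 ± 0.58, edgeR adjusted p = 0.0403). Socs3, an inhibitor of cytokine signalling, had 127 and 116 CPM against 37.4 and 22.8 CPM in Control (1.97 ± 0.25, edgeR adjusted p = 0.0106). Ch25h, which makes 25-hydroxycholesterol (3.02), Scgb3a1 (2.66) and the matrix protein Ccn1 (1.77) completed the highest 8. Of 11 genes tested from the list of leukocyte adhesion and acute phase 7 were higher and 0 lower, with a median of 1.97 against 0.00 over all genes, of which 0.273% were higher and 0.095% lower. Besides those named, they were the cytokine-induced factor Cebpd (1.65) and Vwf (1.20). Like every gene list here, this one was chosen with earlier results of these data known, so its count is a description. Ch25h and Vwf were not called without Diabetic 2, nor Scgb3a1 without Diabetic 1. Lcn2 lost its call with at least 5 UMIs of each glial gene and with the endothelial share from 20. Vcam1 lost it with DESeq2 size factors, and Socs3 and Ccn1 after thinning to 1000 UMIs. For Ch25h this also held with at least 5 UMIs of each glial gene and with the endothelial share from 60. Scgb3a1 lost it in DESeq2, without called doublets and in further settings.

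The lower genes were chaperones, mitochondrial RNA and 2 others. None of these 8 was called with the endothelial share from 20, where 8 genes were higher and 0 lower. Hsph1, a heat shock protein, had 18.7 and 14.3 CPM in Diabetic 1 and 2 and 76.7 and 68.5 CPM in Control 1 and 2 (-2.14 ± 0.28, edgeR adjusted p = 0.0106). It was also not called with at least 5 UMIs of each glial gene. Dnaja1, a co-chaperone (-1.10), and Hsp90aa1 (-0.80) were lower too, which makes 3 lower and 0 higher among 14 tested members of the heat shock list (median -0.58), where 0.095% of all genes were lower and 0.273% higher, with a median of 0.00. The mitochondrial ribosomal RNAs mt-Rnr2 (-1.01) and mt-Rnr1 (-0.96) and mt-Cytb (-0.44) were lower, and 11 of 11 tested mitochondrial protein genes had a negative sign, though 1 was called. A lower mitochondrial share was not particular to vessel-rich members. Over all barcodes that passed, its median was 2.46% and 3.24% in Diabetic 1 and 2 and 4.33% and 4.45% in Control 1 and 2. In endothelial barcodes without glia it was 3.45% and 4.41% against 7.07% and 6.94%. The call of mt-Cytb was lost in DESeq2 (-0.45), with DESeq2 size factors (-0.43), with a mitochondrial share up to 10% (-0.26) and in 4 other settings. Among the others, the kinase Plk2 (-0.85) and Ptn, a growth factor of glia and vessels (-0.84), were lower, but neither was called when either Diabetic library was left out. Dnaja1 was not called without Diabetic 1, nor Hsp90aa1 without Diabetic 2.

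Of the 167 glial panel genes 102 passed the filter on low counts in vessel-rich members, among them 42 of the 43 genes higher against whole glia and 24 of the 64 lower ones. Neither edgeR nor DESeq2 called any of them in Diabetic against Control, and their median was 0.00; in edgeR 4 had an unadjusted p under 0.05 and a higher level and 5 a lower level. Of 15 endfoot genes tested 0 were called by either tool (median -0.13; 1 higher and 3 lower at an unadjusted p under 0.05 in edgeR), and of 23 junction and barrier genes also 0 (median 0.09; 2 higher and 1 lower). Aqp4 had 103 and 103 CPM in Diabetic and 120 and 106 CPM in Control (-0.16 ± 0.17, edgeR adjusted p = 0.818). Glul had 3676 and 3603 CPM in Diabetic and 3346 and 3279 CPM in Control (0.10 ± 0.08), and Rlbp1 had 1086 and 989 CPM in Diabetic and 1302 and 1044 CPM in Control (-0.21 ± 0.14); the rule used both genes, so their values are a description. Gfap, which Müller glia raise under stress, had 14.1 and 4.76 CPM in Diabetic and 18.7 and 0 CPM in Control and was too low to be tested. Of 14 gliosis genes tested 3 were higher, Lcn2, Socs3 and Cebpd, all 3 also called in endothelial barcodes without glia. The simulation of this comparison changed only genes with many UMIs, and 27% of those with a log2 change of 1 were called. Changes of that size could thus be missed with this number of libraries.

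The same comparison in other barcodes came from the same 4 libraries. In endothelial barcodes without glia, Mgp stood at 1.03, Lcn2 at 6.82, Socs3 at 2.12, Ccn1 at 1.8, Ch25h at 4.27 and Hsph1 at -2.32, and each was called (edgeR). There, 48 genes were higher (0.603%) and 31 lower (0.39%), and 12 of the 23 higher and 5 of the 8 lower genes of vessel-rich members were among them. Vcam1 was not, at 0.69 (edgeR adjusted p = 0.465). Without glia it had 119 and 191 CPM in Diabetic 1 and 2 and 63.2 and 144 CPM in Control 1 and 2. Its Diabetic difference was larger in vessel-rich members by 2.47 ± 0.46 (edgeR adjusted p = 0.0288 for the difference). In whole glia 15 genes were higher (0.172%) and 3 lower (0.0344%). Mgp stood at 0.00, Socs3 at -0.23, Ccn1 at -0.25 and Hsph1 at -0.18, none of them called, and mt-Rnr2 at -0.84 (adjusted p = 0.276). Nupr1, a stress-response gene, was the only 1 of the 23 higher genes called in whole glia as well (1.40 in vessel-rich members and 1.12 in whole glia). None of the 167 glial panel genes differed in its Diabetic effect between vessel-rich members and whole glia, and none of the 400 endothelial panel genes between vessel-rich members and endothelial barcodes without glia (edgeR). Of these, 5 glial panel genes had an unadjusted p under 0.05, all with a larger Diabetic effect in vessel-rich members, and 17 and 12 endothelial panel genes with a larger and a smaller one. Over all genes the difference was called for 0.243% of 11538 against whole glia and for 0.13% of 8490 against endothelial barcodes without glia.

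**Figure D5:**
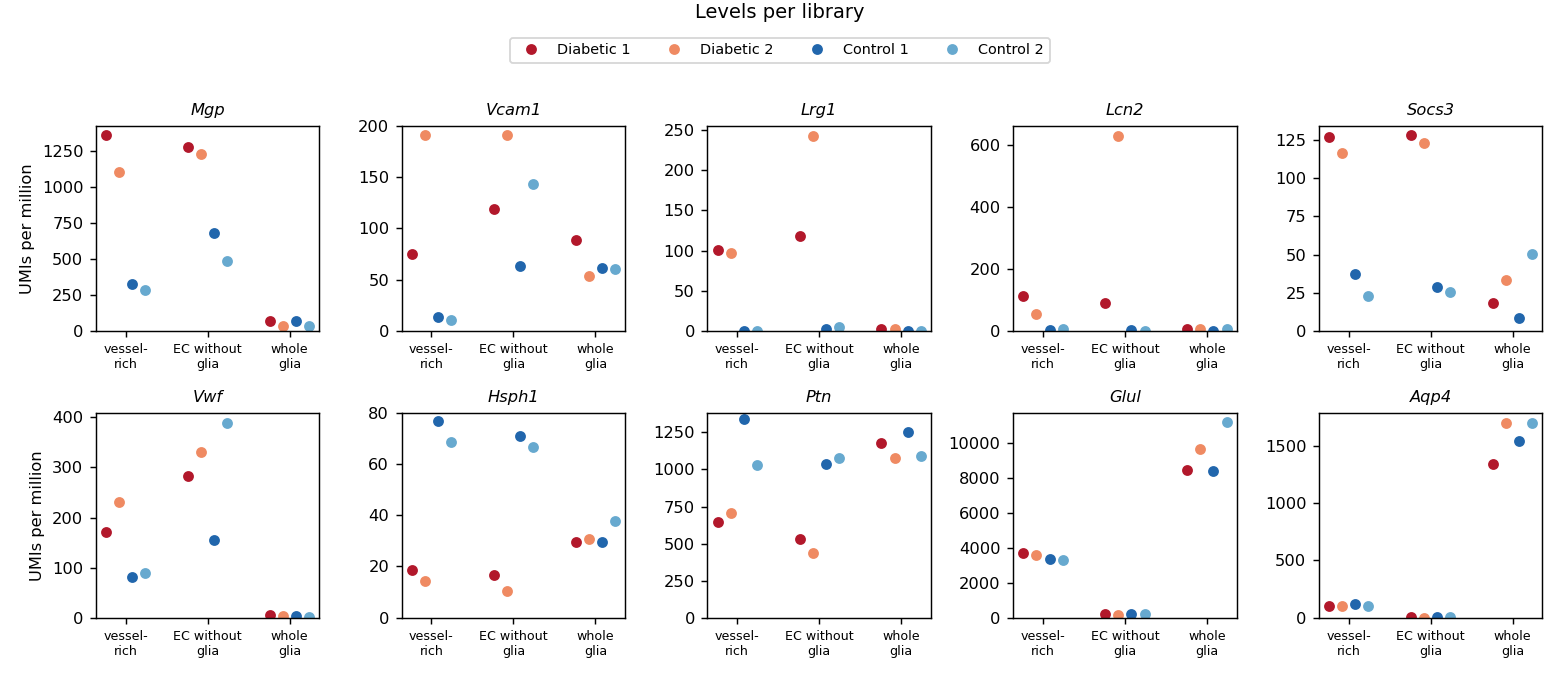
CPM of 10 genes in vessel-rich members, endothelial barcodes without glia (EC without glia) and whole glia, with 1 point per library and each panel on its own linear axis from 0. In vessel-rich members Mgp, Vcam1, Lrg1, Lcn2, Socs3 and Vwf lie higher and Hsph1 and Ptn lower in both Diabetic libraries, while Glul and Aqp4 are close to each other in all 4.

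Other RNA differed between the libraries of the vessel-rich members. Among markers of vessel types, the 10 venous ones summed to 748 and 908 CPM in Diabetic 1 and 2 and 249 and 365 CPM in Control 1 and 2, and 4 of them were higher and 0 lower (Vwf, Vcam1, Lcn2 and Lrg1, median 1.16). The 10 arterial markers summed to 1658 and 1379 CPM in Diabetic and 683 and 654 CPM in Control, and 1 of 5 tested was higher (Mgp, median 0.15). The 8 capillary markers summed to 11899.9 and 12375 CPM in Diabetic and 11146 and 11445 CPM in Control, and their median was -0.30. The part of vessel types in the Diabetic result was not tested. The 4 neutrophil markers summed to 704 CPM in Diabetic 1, 27.3 CPM in Diabetic 2 and 0 in both Control libraries, with Ly6g at 0 everywhere. The 5 erythrocyte markers summed to 4181 and 106 CPM in Diabetic and 7426 and 29.1 CPM in Control, high in replicate 1 of both groups. The 8 rod markers summed to 6328 and 3794 CPM in Diabetic and 7708 and 7079 CPM in Control, and the 8 astrocyte markers to 101 and 66.6 CPM against 135 and 16.6 CPM in Control. Neutrophils can express Lcn2, and its level followed that sum within the Diabetic libraries of vessel-rich members (111 and 54.7 CPM) but not without glia, where the neutrophil sum was 71.2 and 24.4 CPM and Lcn2 87.9 and 630 CPM. The part of these cells in the Diabetic result was not tested.

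Taking all 1268 members, the Diabetic libraries had 212 of 15069 genes higher (1.41%) and 151 lower (1.0%). Since low-share members gave 83.3% to 90.9% of the UMIs, this result mostly reads deep, rod-rich barcodes. In low-share members alone 173 genes were higher (1.22%) and 157 lower (1.1%). Of the 23 genes higher in vessel-rich members 22 were also called over all members, which contain them, and 4 in low-share members. The largest increases over all members by the naming rule included Selenbp1 (3.29, edgeR adjusted p = 1.63e-05), which in vessel-rich members had 14.1 and 13.1 CPM in Diabetic and 13.1 and 8.31 CPM in Control and was not tested.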

How the data were processed

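The authors deposited raw UMI counts per gene and barcode of 4 libraries (10x 3′ chemistry, per the labels), and the submitters' processing notes name Cell Ranger 7.0.0, STAR 2.7.10b and the build mm10. No normalization had been applied to the deposited counts. Barcodes passed with 500 or more UMIs, 300 or more genes and a mitochondrial share up to 20%. Doublets were then scored with Scrublet (scanpy 1.11.5); its automatic threshold called too few, so the highest-scoring 0.8% per 1000 barcodes were called, and kept. UMIs were summed per library and group of barcodes, and libraries were the replicates.

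Sums were tested with edgeR 4.0.16 (R 4.3.3; quasi-likelihood F test, filterByExpr, two-sided) with p-values adjusted by Benjamini-Hochberg over all genes tested and called under 0.05. Comparisons between groups of barcodes had the library as block and the UMI sum of the panel as library size; Diabetic against Control used TMM. DESeq2 1.42.0 was an alternative. Panel genes had at least 50 CPM in their own group and at most 20% of that in neurons (for the glial panel also microglia). In the opposite group the limit was 5% for the glial panel and 20% for the panel of 400 endothelial genes, against whole glia. For the design's 385 endothelial genes it was 5%, against glial barcodes without endothelial UMIs. Fits were also run on simulated data. Between groups 50% of genes with a log2 change of 1 and 100% of those with 2 were recovered (9779 genes), and 27% and 95% between conditions (8500 genes). The changed genes were drawn only from genes with many UMIs, with the same spread set for every gene. Between groups the simulated fits were scaled by TMM over all genes, so the scaling to the panel sum was not tested.

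The intended glial reference, barcodes without any endothelial UMI, was dominated by rod RNA and its panel held 2 genes. Vessel-rich members, whole glia, rod-rich glia and their panels therefore replaced it after the data were seen. The same held for the share of glial UMIs in a mix of 2 profiles, which is not given. Comparisons with barcodes of glial and bipolar RNA, or of glial and cone RNA, were not run, since not every library had at least 10. Diabetic 2 had 6 of each kind, and Control 2 had 5 with cone RNA. Members and gene lists were chosen with earlier results of these data known. Named genes were the called ones of largest change with at least 50 UMIs and 1 direction in 4 libraries (20 CPM and no overlap for Diabetic against Control), a fixed set of glial and endothelial genes, and list members. Some named genes are not reported here.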

Additional observations from a re-analysis of the deposited data

Results flagged for a closer look

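The Diabetic effect differed between groups of barcodes by the test of the difference itself (edgeR, library as block, adjusted p under 0.05). Against whole glia this held for 28 of 11538 genes, 13 with a larger and 15 with a smaller effect in vessel-rich members, and against endothelial barcodes without glia for 11 of 8490, 3 with a larger and 8 with a smaller effect, among them 3 of 8 rod markers, each with a smaller one. The genes below are the 8 that were also called in Diabetic against Control vessel-rich members. Against endothelial barcodes without glia, the effect on Vcam1 was larger in vessel-rich members by 2.47 on the log2 scale; Control endothelial barcodes without glia held more of it (63.2 and 144 CPM) than Control vessel-rich members (13.1 and 10.4 CPM). Against whole glia, with each group scaled to the glial panel, the effect was larger in vessel-rich members by 3.09 for Vcam1, 2.05 for Socs3, 1.98 for Ccn1, 1.97 for Cebpd, 1.92 for Mgp, 1.42 for Junb, 1.38 for Dusp1 and 1.29 for Fos. All of these are RNAs that endothelial barcodes also hold, and none is a glial panel gene. Their cause was not tested.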

How the results depend on the processing

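Vessel-rich members against whole glia (107 panel genes called) gave 76 to 112 under every alternative and 96 to 104 with 1 library left out; values of named genes stayed on their side of the threshold in 420 cases, lost the call in 7 and gained it in 5. Against rod-rich glia the count was 67, and 30 with the endothelial share from 20. Of the 26 endothelial panel genes that differed from endothelial barcodes without glia, DESeq2 called 5, a fit without the library block 10, a fit on the panel alone 15, and fits without 1 library 11 to 24, the fewest without Diabetic 1. For all members in that comparison the count was 31, with 20 in DESeq2, 12 on the panel alone and 15 to 44 without 1 library.

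Diabetic against Control depended more on the settings. In vessel-rich members (31 genes) the count was 202 without the gene filter, 20 with DESeq2 size factors, 72 and 12 with at least 2 and 5 UMIs of each glial gene, 3 after thinning to 1000 UMIs, 8 with the endothelial share from 20 and 27 to 164 without 1 library, the most without Control 1. Over all members (363 genes) the same settings gave 864 without the filter, 202 in DESeq2, 611 and 99 with 2 and 5 UMIs, 552 with a mitochondrial share up to 10%, 18 after thinning and 248 to 1304 without 1 library. The labels' replicate numbers gave no stated pairing. With them as a replicate block 97 genes were called in vessel-rich members and 1152 over all members; the deviations correlated at 0.38 and 0.12 over 2 pairs, too few to take the numbers as a pairing, and the erythrocyte markers of vessel-rich members were high in replicate 1 of both groups (4181 CPM in Diabetic and 7426 CPM in Control). Whether the numbers mark a shared batch was not tested. The difference of the Diabetic effect was called for 1 glial panel gene with at least 5 UMIs of each glial gene. Against endothelial barcodes without glia it was called for 3 panel genes without the filter, 1 without called doublets and 1 to 9 without 1 library. The cause of these shifts was not tested.

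The share of endothelial barcodes that were members was 28.6% and 37.7% in Diabetic 1 and 2 and 40.2% and 39.25% in Control 1 and 2 with at least 2 UMIs, 13.1% and 22.1% in Diabetic and 21.1% and 25.0% in Control with at least 5, and 2.29% and 2.8% in Diabetic and 2.83% and 4.03% in Control after thinning. The order of the libraries depended on the threshold. Under the rule Diabetic 2 lay below Control 1 (31.0% against 32.2%), but with at least 5 UMIs it lay above. Control 1 lay below Control 2 under the rule (32.2% against 33.0%) and above it with at least 2 UMIs. With 2 libraries a group, depth and number limit what could be called.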

Other observations

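Apoe, the apolipoprotein that Müller glia make in large amounts, had 1520 and 1509 CPM in vessel-rich members of Diabetic 1 and 2 and 1653 and 1530 CPM in those of Control 1 and 2 (log2 fold change -0.10 ± 0.11, edgeR adjusted p = 0.82). In endothelial barcodes without glia it had 698 and 1115 CPM in Diabetic and 425 and 344 CPM in Control (1.16 ± 0.23, edgeR adjusted p = 0.0312). The Diabetic effect in vessel-rich members less that without glia was -1.49 ± 0.26 (edgeR adjusted p = 0.0288 for the difference). The gene was chosen after its values were seen. In endothelial barcodes without glia the 8 microglia markers summed to 194 and 482 CPM in Diabetic and 34.4 and 41.0 CPM in Control. In vessel-rich members they summed to 56.2 and 35.7 CPM in Diabetic and 24.3 and 60.2 CPM in Control. The part of microglia in the Apoe difference was not tested.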
